A study of Homo sapiens with 16 samples.

Results

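The TGF-beta genes described here are 9 of the 35106 gene rows of the count table: the ligands TGFB1, TGFB2 and TGFB3, the receptors TGFBR1 and TGFBR2, the signal transducers SMAD3 and SMAD7, and the target genes TGFBI and CTGF. They were chosen by name; 8 were found by their symbol, and CTGF, which the table lists under its newer symbol CCN2, was found by its Ensembl gene ID (ENSG00000118523). All 9 passed the filter on low counts in each comparison. RNA sequencing had been run on 16 libraries of 2 human breast cancer cell lines to look at the expression response to MitoQ, a ubiquinone linked to a triphenylphosphonium cation that carries it into mitochondria. The groups were 5 libraries of MDA-MB-231 given 500 nM MitoQ for 48 h, 5 of MDA-MB-231 controls, 3 of SKBR3 given the same dose for the same time and 3 of SKBR3 controls. Both lines came from pleural effusions of adenocarcinomas of the breast and were grown in high-glucose DMEM with fetal bovine serum, MDA-MB-231 at passage 25 and SKBR3 at passage 10, so passage cannot be told apart from line. SKBR3 carries an amplified ERBB2 gene, while MDA-MB-231 lacks hormone receptors and ERBB2 amplification and looks mesenchymal. What the control cells received, and whether the libraries of a group came from separate cultures, is not given in the sources used here, so p-values measure the spread between these libraries, which may be technical.

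TGF-beta is secreted in a latent form that is stored in the matrix and has to be released before it can bind. The active dimer binds the type II receptor TGFBR2, which recruits and phosphorylates the type I receptor TGFBR1, and this kinase in turn phosphorylates SMAD2 and SMAD3, which enter the nucleus with SMAD4 and act on target genes. SMAD7 is an inhibitory member of the family and itself a target gene, so that it closes a negative feedback loop. In breast cancer the pathway is known for slowing the growth of epithelial cells and for driving invasion and mesenchymal traits in advanced cells. None of the libraries measures protein, secreted ligand or SMAD phosphorylation. In bulk RNA, a change in the share of cells that express a gene and a change in RNA per cell cannot be told apart.

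Library totals ranged from 14723152 to 29294865 counts. The marker genes followed the labels of the lines, although the column names of the SKBR3 libraries also carry the number of the other line. ERBB2 averaged 54.2 CPM in MDA-MB-231 controls and 5327 CPM in SKBR3 controls, and VIM averaged 3409 CPM in MDA-MB-231 controls and 0.179 CPM in SKBR3 controls; CDH1, listed among the SKBR3 markers, was low in both lines. Levels are normalised CPM, counts scaled to the size of the library, on 1 scale for the 16 libraries. Summed markers of other cell types were 6.87 to 11.8 CPM for 8 fibroblast genes, 0.382 to 2.43 CPM for 5 leukocyte genes and 6.41 to 29.2 CPM for 4 endothelial genes, with THY1 at 0 in the MDA-MB-231 controls, LUM at 0 in both SKBR3 groups and CD3E at 0 in MDA-MB-231 given MitoQ. Most of the endothelial sum in SKBR3 was CDH5, at 23.0 ± 2.86 CPM with MitoQ and 17.5 ± 2.31 CPM in controls (SD, n = 3 each), called higher (log2 fold change 0.36, adjusted p = 0.0147). In MDA-MB-231 it was mostly KDR, at 6.61 ± 0.977 CPM with MitoQ and 4.07 ± 0.923 CPM in controls (SD, n = 5 each), also called higher (0.72, adjusted p = 3.21e-04). Their part in the results was not tested. A pair of libraries stood apart: SKBR3 control 3 lay at -7.24 on the first principal component of its line, between the MitoQ libraries (15.9 to 21.2) and the other controls (-24.6 and -23.6), and MDA-MB-231 MitoQ 2 differed from the rest of its group by a chi-square of 14.8 to 19.6 per gene, against 3.14 to 10.8 between the other 4.

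In MDA-MB-231 cells MitoQ was accompanied by higher RNA of the inhibitor SMAD7 (2.99-fold), of TGFBI, TGFB1, TGFBR1, SMAD3 and TGFB2, and by lower RNA of CTGF and TGFB3. In SKBR3 cells SMAD3 and TGFBI were higher and TGFB3 and TGFBR1 lower. The responses of SMAD7, TGFBR1 and CTGF differed between the lines, as did those of 34.1% of all genes tested. TGFBR1 was called in opposite directions. Between the control lines all 9 genes differed, beside 86.5% of all genes tested. The main ligand RNAs were TGFB1 and TGFB2 in MDA-MB-231 and TGFB3 in SKBR3.

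In counts, 6 of the 9 genes were called higher and 2 lower in MDA-MB-231, where a call is an adjusted p under 0.05 in edgeR's quasi-likelihood test with Benjamini-Hochberg adjustment over all genes tested. Of all 15304 genes tested in that line 29.9% were called higher and 27.6% lower, so calls in either direction were common. The median log2 fold change, MitoQ over control, was 0.32 over the 9 genes and 0.012 over all genes. In SKBR3, 2 of the 9 were called higher and 2 lower, beside 13.8% and 14.1% of 15026 genes, with a median of 0.15 over the 9 and -0.00064 over all. The test of the difference between the lines, the effect in MDA-MB-231 minus the effect in SKBR3, called 2 of the 9 higher and 1 lower, beside 14.9% and 19.1% of 17094 genes. Without SKBR3 control 3 there were 4 calls in SKBR3 and 4 in the difference, and without MDA-MB-231 MitoQ 2 there were 8 in MDA-MB-231. Between MDA-MB-231 and SKBR3 controls 6 of the 9 were higher and 3 lower, beside 44.4% and 42.0% of 16398 genes.

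**Figure D1:**
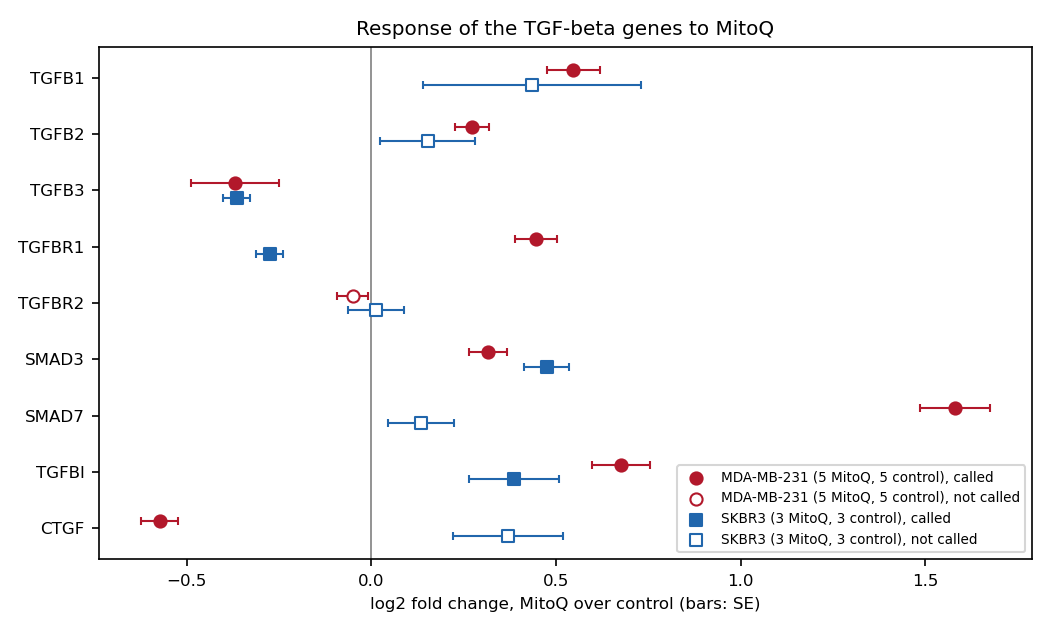
Log2 fold change of the 9 TGF-beta genes (rows), MitoQ over control, in MDA-MB-231 (circles, 5 against 5 libraries) and SKBR3 (squares, 3 against 3), with bars of 1 standard error and filled symbols for genes called at an adjusted p under 0.05. SMAD7 lies at 1.58 in MDA-MB-231 and 0.13 in SKBR3, and TGFBR1 and CTGF lie on opposite sides of 0 in the 2 lines.

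SMAD7 showed the strongest response among the 9. The gene (ENSG00000101665, chr18:48919853-48952052, minus strand; positions on GRCh38 from GENCODE release 29) encodes a protein that blocks the activated type I receptor and recruits ubiquitin ligases to it. Its level was 15.8, 17.6, 15.8, 19.1 and 20.5 CPM in the 5 MDA-MB-231 libraries given MitoQ, against 5.61, 6.34, 6.61, 5.03 and 6.44 CPM in the 5 controls. Every MitoQ library was well above every control. The log2 fold change was 1.58 ± 0.094 (SE; adjusted p = 4.93e-11), and 1.59% of the genes tested had a higher one. In SKBR3 it had 12.5, 13.2 and 14.7 CPM with MitoQ and 11.6, 12.8 and 11.8 CPM in controls, ranges that overlap, with a log2 fold change of 0.13 ± 0.090 (adjusted p = 0.299). The effects differed by 1.40 ± 0.14 on the log2 scale (adjusted p = 5.64e-08). SMAD7 was 2.02-fold lower in MDA-MB-231 controls than in SKBR3 controls, and MDA-MB-231 cells given MitoQ, at 17.8 ± 2.06 CPM (SD, n = 5), lay above both SKBR3 groups.

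The 300-base windows around an annotated transcription start, from 250 bases before to 50 after it, are shown for the 3 genes whose response differed between the lines: SMAD7, CTGF and TGFBR1. The sequences are from RefSeq on GRCh38.p14, written 5′ to 3′ along the gene; where the table lists several starts for a gene (3 for SMAD7 and 8 for TGFBR1), the first is shown. The SMAD7 and TGFBR1 windows shown lie inside the GENCODE gene bounds, downstream of the outermost start. The windows are chr18:48950916-48951215 on the minus strand for SMAD7, chr6:131951323-131951622 on the minus strand for CTGF and chr9:99104863-99105162 on the plus strand for TGFBR1. Capitals mark the short SMAD motif CAGAC (or GTCTG on the other strand) and the TEAD motif GGAATG.
SMAD7: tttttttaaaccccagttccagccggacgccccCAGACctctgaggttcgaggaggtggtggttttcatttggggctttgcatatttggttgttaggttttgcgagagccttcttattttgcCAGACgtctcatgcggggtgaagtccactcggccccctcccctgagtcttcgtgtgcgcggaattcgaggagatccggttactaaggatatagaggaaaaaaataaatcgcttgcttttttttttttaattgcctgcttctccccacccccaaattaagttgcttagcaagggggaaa
CTGF: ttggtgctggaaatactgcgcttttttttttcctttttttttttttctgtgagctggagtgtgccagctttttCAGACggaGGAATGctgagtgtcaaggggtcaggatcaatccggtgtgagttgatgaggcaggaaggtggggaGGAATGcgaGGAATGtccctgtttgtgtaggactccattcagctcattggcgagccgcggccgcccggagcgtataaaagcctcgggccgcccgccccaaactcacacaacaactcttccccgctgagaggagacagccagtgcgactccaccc
TGFBR1: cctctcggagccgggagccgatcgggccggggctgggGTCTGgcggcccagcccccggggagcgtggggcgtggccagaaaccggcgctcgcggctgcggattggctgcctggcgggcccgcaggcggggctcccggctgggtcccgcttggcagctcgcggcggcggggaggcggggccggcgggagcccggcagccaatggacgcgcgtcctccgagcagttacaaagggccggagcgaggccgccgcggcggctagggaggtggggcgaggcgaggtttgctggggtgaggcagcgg
The SMAD7 window has CAGAC at -217 and -128 from the start. The CTGF window has CAGAC at -177 and GGAATG at -169, -104 and -95, and the TGFBR1 window has the short SMAD motif on the other strand at -213. That motif is common, since 45.3% of 34943 promoter windows of this length hold at least 1 on either strand. The TEAD motif stands in 14.0% of the windows, and 3 or more copies stand in 44 windows (0.126%), CTGF's among them. The SMAD palindrome GTCTAGAC, in 0.203% of all windows, and the ATF4 motif TGATGNAA, in 3.62%, were in none of the 24 windows that the table lists for the 9 genes. None of the 3 SMAD7 windows covers the outermost start of that gene at 48952052, so the search says nothing about motifs there. In the first listed windows of the other members, TGFB2 and TGFB3 had 2 short SMAD motifs each and SMAD3 had 1, TGFB2 had 1 TEAD motif, and TGFB1, TGFBR2 and TGFBI had none of the 4 motifs. Over all 24 listed windows, the short SMAD motif stood in 12 and the TEAD motif in 3. The TEAD motif was in the windows of CTGF and TGFB2 and in another TGFBR1 window. The TGFBR1 window that covers the outermost start of that gene held 2 short SMAD motifs, and a further SMAD3 window held 4. The search covered both strands, and a match is a run of letters only.

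**Figure D2:**
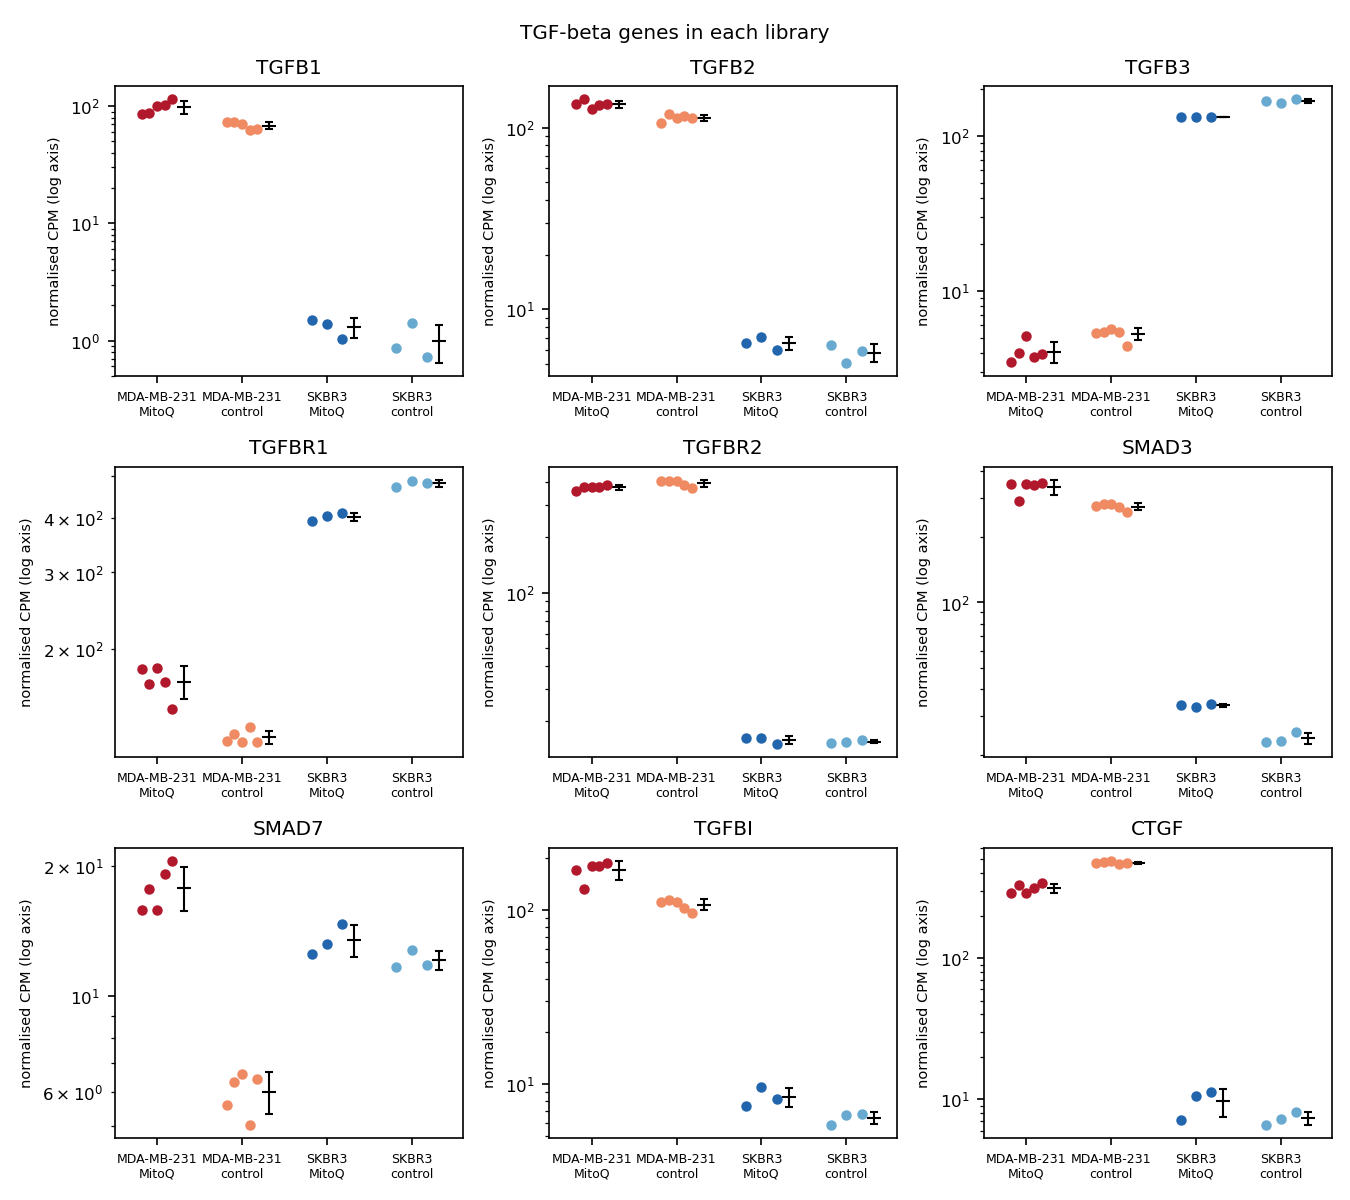
Level of each TGF-beta gene in every library (normalised CPM, log axis that differs between panels), with the mean and SD of each group in black beside its points. Columns are MDA-MB-231 MitoQ, MDA-MB-231 control, SKBR3 MitoQ and SKBR3 control; SMAD7 is the gene whose 5 MDA-MB-231 MitoQ libraries moved furthest from their controls, at 15.8 to 20.5 CPM against 5.03 to 6.61 CPM.

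The ligand genes are TGFB1 (ENSG00000105329, chr19:41301587-41353911, minus strand), TGFB2 (ENSG00000092969, chr1:218346235-218444619, plus strand) and TGFB3 (ENSG00000119699, chr14:75958099-75982991, minus strand), which encode related dimers that bind the same receptors. TGFB1 had 85.9, 87.4, 101, 103 and 115 CPM in MDA-MB-231 given MitoQ, against 72.8, 72.7, 69.8, 62.4 and 63.9 CPM in controls. The groups did not overlap, and the log2 fold change was 0.55 ± 0.072 (adjusted p = 4.97e-06). TGFB2 had 135, 143, 127, 133 and 135 CPM with MitoQ, against 106, 119, 113, 117 and 112 CPM in controls. Here too every MitoQ library was above every control, by a smaller log2 fold change of 0.27 ± 0.047 (adjusted p = 5.66e-05). Of the 31-base stretches of TGFB2 transcripts, 25.9% also lie in TGFB2-OT1, an RNA of the same locus that has no row among the deposited counts. Part of the TGFB2 reads can therefore not be assigned with certainty. The ratio of TGFB2 to TGFB1 counts within a library averaged 0.46 ± 0.21 on the log2 scale with MitoQ and 0.73 ± 0.14 in controls (SD, n = 5 each; two-sided exact permutation p = 0.0635, adjusted over 4 ratio tests p = 0.127), a difference that did not pass the threshold.

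TGFB3 moved the other way from TGFB1 and TGFB2 in MDA-MB-231, where it was a minor ligand. It had 3.48, 3.99, 5.10, 3.76 and 3.92 CPM with MitoQ, against 5.40, 5.45, 5.66, 5.46 and 4.44 CPM in controls, a log2 fold change of -0.37 ± 0.12 (adjusted p = 0.0121). The groups overlapped, since MitoQ 3 at 5.10 CPM exceeded control 5 at 4.44 CPM. In SKBR3, where TGFB3 was the leading ligand, it had 132, 132 and 132 CPM with MitoQ, against 167, 164 and 172 CPM in controls. This was a separated fall of nearly the same size, with a log2 fold change of -0.37 ± 0.036 (adjusted p = 9.93e-06). The difference between the lines was -0.055 ± 0.11 (adjusted p = 0.763).

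SKBR3 held little TGFB1 and TGFB2. TGFB1 had 1.49, 1.38 and 1.02 CPM with MitoQ, against 0.867, 1.40 and 0.724 CPM in controls, from 88 counts over the 3 MitoQ libraries and 57 over the 3 controls. The ranges overlapped, and the log2 fold change of 0.43 ± 0.30 did not pass the test (adjusted p = 0.308). TGFB2 had 6.51, 7.07 and 5.98 CPM with MitoQ and 6.39, 5.06 and 5.90 CPM in controls (log2 fold change 0.15 ± 0.13, adjusted p = 0.425). At these counts a difference between the lines in the response of TGFB1 was not detectable (0.040 ± 0.35, adjusted p = 0.969). For TGFB2 the difference between the lines was 0.078 ± 0.11 (adjusted p = 0.652).

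The ligands of the control lines differed more than any treatment changed them. TGFB1 was 71.8-fold higher in MDA-MB-231 controls than in SKBR3 controls (log2 6.17 ± 0.13) and TGFB2 19.2-fold higher (4.26 ± 0.071), while TGFB3 was 32.1-fold lower (log2 -5.00 ± 0.057), with adjusted p-values from 3.83e-25 to 3.04e-20. Scaled by transcript length, TGFB1 made up 55.5% ± 3.51 of the ligand RNA in MDA-MB-231 given MitoQ and 50.1% ± 2.23 in its controls (SD, n = 5 each). TGFB2 made up 41.9% ± 3.54 with MitoQ and 45.6% ± 2.26 in controls, and TGFB3 2.52% ± 0.391 with MitoQ and 4.26% ± 0.326 in controls. In SKBR3 the share of TGFB3 was 96.8% ± 0.329 with MitoQ and 97.8% ± 0.147 in controls (SD, n = 3 each). Which of TGFB1 and TGFB2 came first in MDA-MB-231 controls depended on the length used: with the union of all exons TGFB1 had 47.7% and TGFB2 49.8%.

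**Figure D3:**
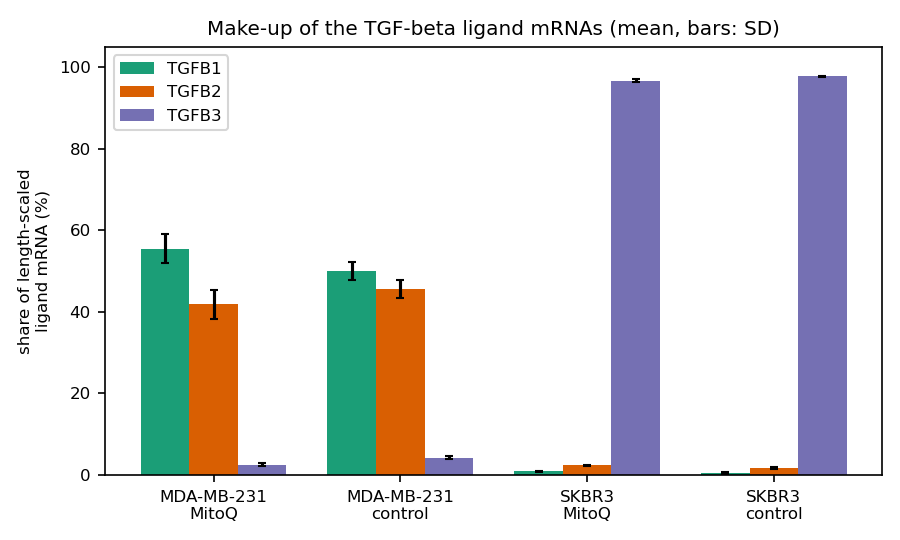
Share of TGFB1, TGFB2 and TGFB3 in the length-scaled ligand RNA of each group (y axis, %; bars are means and error bars SD over 5 MDA-MB-231 or 3 SKBR3 libraries). TGFB1 and TGFB2 together make up nearly all of it in MDA-MB-231, and TGFB3 makes up 96.8% and 97.8% in SKBR3 given MitoQ and SKBR3 controls.

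The type I receptor TGFBR1 (ENSG00000106799, chr9:99104038-99154192, plus strand), the kinase that phosphorylates the SMADs, was higher in one line and lower in the other. In MDA-MB-231 it had 180, 166, 181, 168 and 145 CPM with MitoQ, against 123, 127, 122, 132 and 122 CPM in controls (log2 fold change 0.45 ± 0.056, adjusted p = 1.39e-06). In SKBR3 it had 394, 405 and 411 CPM with MitoQ, against 472, 488 and 482 CPM in controls (log2 fold change -0.28 ± 0.035, adjusted p = 7.76e-05). The groups did not overlap in either line, and the effects differed by 0.68 ± 0.077 (adjusted p = 2.75e-07). MDA-MB-231 controls held 3.88-fold less TGFBR1 RNA than SKBR3 controls, and the treated lines were closer to each other than the controls were.

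The type II receptor TGFBR2 (ENSG00000163513, chr3:30606502-30694142, plus strand), which binds the ligand first, did not pass the test in either line. It had 356, 377, 374, 377 and 385 CPM in MDA-MB-231 given MitoQ and 404, 404, 403, 384 and 369 CPM in controls (log2 fold change -0.051 ± 0.043, adjusted p = 0.327), with overlapping ranges; the sign turned with plain library totals as the scale (0.0092 ± 0.038). In SKBR3 it had 16.2, 16.3 and 15.0 CPM with MitoQ and 15.2, 15.5 and 15.8 CPM in controls (0.012 ± 0.077, adjusted p = 0.930). It was 25.0-fold higher in MDA-MB-231 controls than in SKBR3 controls (log2 4.64 ± 0.055), the reverse of the type I receptor, so that the 2 lines had their receptor RNAs in opposite proportion.

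The ratio of TGFBR1 to TGFBR2 counts within a library needs no scale between libraries. Its log2 value averaged -1.16 ± 0.16 in MDA-MB-231 given MitoQ and -1.65 ± 0.082 in controls (SD, n = 5 each). The difference of 0.49 had a two-sided exact permutation p of 0.00794, the smallest that 5 against 5 libraries can give, and 0.0317 adjusted over 4 ratio tests; leaving out any 1 control raised the adjusted value to 0.0635. In SKBR3 the ratio averaged 4.67 ± 0.088 with MitoQ and 4.95 ± 0.023 in controls (SD, n = 3 each). That difference of -0.28 separated the groups, but 3 against 3 libraries cannot give a two-sided exact permutation p under 0.10, the value found.

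SMAD3 (ENSG00000166949, chr15:67063763-67195195, plus strand), a receptor-activated SMAD that binds DNA directly, was higher in both lines. In MDA-MB-231 it had 349, 291, 350, 347 and 352 CPM with MitoQ, against 278, 282, 283, 275 and 260 CPM in controls (log2 fold change 0.32 ± 0.051, adjusted p = 3.29e-05). The groups did not overlap, although MitoQ 2 at 291 CPM lay well below the other 4 and just above the controls; without it the log2 fold change was 0.37. In SKBR3 it had 33.8, 33.3 and 34.3 CPM with MitoQ, against 22.9, 23.2 and 25.5 CPM in controls, again separated (0.47 ± 0.061, adjusted p = 7.28e-05), and 0.54 without SKBR3 control 3. The effects differed by -0.20 ± 0.087, which did not pass the test (adjusted p = 0.0795) but did without SKBR3 control 3 (-0.27, adjusted p = 0.0336) or without MDA-MB-231 MitoQ 5 (-0.23, adjusted p = 0.0464). SMAD3 was 11.3-fold higher in MDA-MB-231 controls than in SKBR3 controls.

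TGFBI (ENSG00000120708, chr5:136028895-136063818, plus strand), a matrix protein named for its induction by TGF-beta, was higher in both lines. It had 170, 132, 179, 180 and 185 CPM in MDA-MB-231 given MitoQ, against 111, 115, 111, 103 and 96.3 CPM in controls (log2 fold change 0.68 ± 0.079, adjusted p = 2.38e-06). MitoQ 2 was again the lowest of its group but above every control, and without it the log2 fold change was 0.76. In SKBR3 it had 7.47, 9.58 and 8.19 CPM with MitoQ, against 5.80, 6.59 and 6.70 CPM in controls. These did not overlap (log2 fold change 0.39 ± 0.12, adjusted p = 0.0283), but the call was lost without SKBR3 control 1 (0.33, adjusted p = 0.101) or SKBR3 MitoQ 2 (0.29, adjusted p = 0.163) and with DESeq2 (adjusted p = 0.0546). The difference between the lines was 0.24 ± 0.18 (adjusted p = 0.338). TGFBI was 16.6-fold higher in MDA-MB-231 controls than in SKBR3 controls.

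CTGF (ENSG00000118523, chr6:131948176-131951373, minus strand), a matrix-associated signalling protein driven by SMADs and by YAP with TEAD factors, was the member that fell most in MDA-MB-231. It had 287, 332, 291, 315 and 342 CPM with MitoQ, against 474, 476, 486, 462 and 468 CPM in controls. Every MitoQ library was far below every control, 1.49-fold on average (log2 fold change -0.57 ± 0.050, adjusted p = 1.14e-08). In SKBR3 it had 7.14, 10.6 and 11.3 CPM with MitoQ, against 6.61, 7.26 and 8.15 CPM in controls (0.37 ± 0.15, adjusted p = 0.0846); MitoQ 1 lay within the range of the controls, and without it the gene was called (0.55, adjusted p = 0.0056). The effects differed by -0.98 ± 0.15 (adjusted p = 2.00e-05). CTGF was 62.9-fold higher in MDA-MB-231 controls than in SKBR3 controls, the second largest gap among the 9 after TGFB1.

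The sum of the 7 MDA-MB-231 markers was higher in SKBR3 given MitoQ, at 47.4 to 53.6 CPM against 24.7 to 27.6 CPM in SKBR3 controls. Of the 5 tested, CD44, CAV1 and LOXL2 were called higher and none lower, beside 13.8% and 14.1% of all genes. Most of the sum was CD44, at 37.6 ± 3.07 CPM with MitoQ and 16.9 ± 1.25 CPM in controls (SD, n = 3 each). VIM was at 0.401 CPM in SKBR3 given MitoQ and 0.179 CPM in SKBR3 controls, and MSN at 1.35 CPM with MitoQ and 1.66 CPM in controls. AXL was at 0.508 CPM with MitoQ and 0.608 CPM in controls, and ZEB1 at 0.243 CPM and 0.257 CPM. VIM, with 27 counts over the SKBR3 MitoQ libraries and 10 over the SKBR3 controls, was not tested there, nor was ZEB1. In MDA-MB-231, 4 of the 7 SKBR3 markers were called higher with MitoQ and none lower, beside 29.9% and 27.6% of all genes. These were ESRP1, a splicing regulator of epithelial cells, at 9.73 ± 1.92 CPM with MitoQ and 3.33 ± 0.240 CPM in controls (SD, n = 5 each; log2 fold change 1.56 ± 0.13, adjusted p = 4.64e-09), GRB7 (0.66 ± 0.22), STARD3 (0.25 ± 0.056) and KRT18 (0.14 ± 0.046). The sum over the 7 was 888 to 1066 CPM with MitoQ and 895 to 967 CPM in controls. Each line's own markers moved as well. In SKBR3, KRT18 (0.23 ± 0.043), STARD3 (0.17 ± 0.037) and KRT8 (0.14 ± 0.043) of the 7 SKBR3 markers were called higher and none lower. Of the 7 MDA-MB-231 markers in MDA-MB-231, AXL (0.44 ± 0.047) and CD44 (0.25 ± 0.040) were called higher. CAV1 (-0.39 ± 0.046) and LOXL2 (-0.35 ± 0.050) were called lower there. The part of either marker list in the changes of the 9 genes was not tested.

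Scaled by the length of the longest coding transcript, the order of the 9 genes differed between the lines and changed in places with treatment. In MDA-MB-231 CTGF came first, at 134 ± 10.3 CPM per kb with MitoQ and 202 ± 3.83 CPM per kb in controls (SD, n = 5 each), and TGFBR2 second, at 80.9 ± 2.36 with MitoQ and 85.0 ± 3.42 in controls. SMAD3, TGFBI, TGFB1, TGFB2 and TGFBR1 followed, between 25.8 and 60.3 CPM per kb with MitoQ and between 19.2 and 44.1 CPM per kb in controls. SMAD3 was above TGFBI in controls and below it with MitoQ. Neighbours in that order whose mean ± SD overlapped were TGFBI and SMAD3, and TGFB2 and TGFBR1, with MitoQ, and TGFB1 and TGFB2 in controls. SMAD7 and TGFB3 were lowest, at 4.01 and 1.60 CPM per kb with MitoQ and 1.36 and 2.09 CPM per kb in controls, so that their order was reversed between the treatments; with the union of exons as the length SMAD7 was above TGFB3 in both.

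In SKBR3 the per-length order began with TGFBR1, at 61.9 ± 1.32 CPM per kb with MitoQ and 73.8 ± 1.26 CPM per kb in controls (SD, n = 3 each), and TGFB3, at 52.4 ± 0.0944 with MitoQ and 66.5 ± 1.67 in controls. The other 7 genes lay far below, at 0.469 to 5.41 CPM per kb with MitoQ and 0.360 to 3.82 CPM per kb in controls, with TGFB1 last. Mean ± SD overlapped for TGFBR2 and CTGF, and for SMAD7 and the gene just above it, in both groups, and for SMAD7 and TGFBI with MitoQ. TGFBI moved down in all 4 groups when the union of exons was the length, from rank 4 to rank 7 in MDA-MB-231 controls.

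The genes of the pathway around these 9 were taken from fixed lists. Their counts of calls stand beside 29.9% of all genes called higher and 27.6% lower in MDA-MB-231, and 13.8% and 14.1% in SKBR3. For the storage and release of the ligands, 10 of 12 genes were tested in MDA-MB-231, of which 6 were called higher and 2 lower (median log2 fold change 0.22). LTBP3, a latent TGF-beta binding protein that anchors the ligand in the matrix, was at 82.7 ± 10.5 CPM with MitoQ and 28.3 ± 1.61 CPM in controls (SD, n = 5 each; log2 fold change 1.57 ± 0.075, adjusted p = 6.71e-12). Its relatives LTBP4 (0.55 ± 0.057) and LTBP1 (0.48 ± 0.051) were higher too, while LTBP2 was called lower (-0.16 ± 0.066, adjusted p = 0.0416). ITGB8, an integrin subunit that pairs with ITGAV to release active TGF-beta, was lower, at 5.45 ± 0.828 CPM with MitoQ and 14.2 ± 0.647 CPM in controls (log2 fold change -1.37 ± 0.094, adjusted p = 4.55e-10). In SKBR3, 6 of 10 tested were higher and none lower (median 0.25). They included ITGB6, the subunit of another releasing integrin, at 67.3 ± 5.18 CPM with MitoQ and 45.6 ± 0.541 CPM in controls (SD, n = 3 each; log2 fold change 0.54 ± 0.055, adjusted p = 1.08e-05), THBS1, a thrombospondin that activates the latent ligand (0.32 ± 0.041), LTBP3 (0.31 ± 0.068) and LTBP1 (0.12 ± 0.034). The effect on LTBP3 was larger in MDA-MB-231 by 1.22 (adjusted p = 1.09e-07), and ITGB8 differed by -1.59 (adjusted p = 4.33e-07).

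In MDA-MB-231, 29.9% of all genes were called higher and 27.6% lower, and in SKBR3 13.8% and 14.1%. Of the 6 other receptors and co-receptors, 3 were higher and none lower in MDA-MB-231 (median 0.42). These were ACVR1, a type I receptor for bone morphogenetic proteins (0.30 ± 0.059), BAMBI, a pseudoreceptor without a kinase domain (0.53 ± 0.11), and ACVRL1, a type I receptor best known in endothelium (0.85 ± 0.29), the last at only 0.673 CPM with MitoQ and 0.382 CPM in controls. In SKBR3, 1 was higher and 1 lower (median 0.20): the co-receptor ENG (0.18 ± 0.060) and BAMBI, at 21.7 ± 0.535 CPM with MitoQ and 27.1 ± 2.86 CPM in controls (-0.34 ± 0.076, adjusted p = 0.00421). BAMBI, like TGFBR1, was thus called in opposite directions, and its effects differed by 0.83 (adjusted p = 2.22e-04).

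The 19 other transducers and regulators were all tested, with 5 higher and 5 lower in MDA-MB-231 (median 0.030) and 5 higher and 4 lower in SKBR3 (median 0.020). Over all genes the shares were 29.9% higher and 27.6% lower in MDA-MB-231, and 13.8% and 14.1% in SKBR3. The 5 lower in MDA-MB-231 were TGIF2 (-0.52 ± 0.053), STRAP (-0.32 ± 0.046), USP15 (-0.30 ± 0.049), PMEPA1 (-0.24 ± 0.057) and TGFBRAP1 (-0.17 ± 0.063). The 4 with the smallest p there were all higher. SKIL, a corepressor of SMADs that is itself a TGF-beta target, was at 51.8 ± 6.74 CPM with MitoQ and 25.1 ± 0.848 CPM in controls (SD, n = 5 each; 1.07 ± 0.076, adjusted p = 1.01e-09). ZFYVE9, which presents SMADs to the receptor (0.78 ± 0.058), TGIF1, another SMAD corepressor (0.65 ± 0.051), and SMURF2, a ubiquitin ligase that works with SMAD7 on the receptor (0.46 ± 0.039), were the others. In SKBR3 the 4 named genes moved little: TGIF1 (0.21 ± 0.050) and SMURF1 (0.18 ± 0.043), a ligase like SMURF2, were higher, and the deubiquitinase USP15 (-0.21 ± 0.047) and the SMAD phosphatase PPM1A (-0.17 ± 0.041) were lower. The effects on SKIL (0.93), ZFYVE9 (0.66), TGIF1 (0.40) and SMURF2 (0.30) were larger in MDA-MB-231, with adjusted p-values of the difference from 7.53e-08 to 3.43e-04.

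Among 20 other target genes, 11 of 19 tested were higher and 1 lower in MDA-MB-231 (median 0.21), and 10 of 18 tested were higher and 3 lower in SKBR3 (median 0.28). Of all genes, 29.9% were called higher and 27.6% lower in MDA-MB-231, and 13.8% and 14.1% in SKBR3. In MDA-MB-231 the collagen gene COL7A1 (1.27 ± 0.048), JUNB, a transcription factor of the Jun family (1.33 ± 0.097), and LOX, which cross-links collagen (1.12 ± 0.062), were among those higher. In SKBR3 the metalloprotease ADAM19 (0.40 ± 0.048) and the scaffold protein NEDD9 (0.32 ± 0.048) were higher, and ANGPTL4, an inhibitor of lipoprotein lipase, was lower (-1.15 ± 0.20, adjusted p = 8.38e-04), at 1.44 ± 0.260 CPM with MitoQ and 3.11 ± 0.541 CPM in controls. ANGPTL4 was also the 1 target called lower in MDA-MB-231, at 2.02 ± 0.286 CPM with MitoQ and 5.05 ± 0.637 CPM in controls (SD, n = 5 each; -1.30 ± 0.13, adjusted p = 1.08e-07), and the difference between the lines was -0.18 ± 0.25 (adjusted p = 0.627). LOX, with 1 count over the SKBR3 MitoQ libraries and 6 over the SKBR3 controls, was not tested there.

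Of the 10 listed genes that share CTGF's control by YAP and TEAD, 6 were called higher in MDA-MB-231 and none lower (median 0.31). The shares over all genes were 29.9% higher and 27.6% lower in MDA-MB-231, and 13.8% and 14.1% in SKBR3. Among the 6 were F3, the tissue factor of blood clotting (0.47 ± 0.043), the receptor kinase AXL (0.44 ± 0.047), the nuclear cofactor ANKRD1 (0.39 ± 0.046) and the cell surface nucleotidase NT5E (0.34 ± 0.041). CRIM1 (-0.11 ± 0.051, adjusted p = 0.0816) and AMOTL1 (-0.064 ± 0.050, adjusted p = 0.288) leaned lower without a call. Whether YAP and TEAD had a part in the fall of CTGF was not tested. CYR61, the closest relative of CTGF on the list and also counted among the other targets, was at 918 ± 48.6 CPM with MitoQ and 869 ± 21.6 CPM in controls (SD, n = 5 each) in MDA-MB-231 (0.10 ± 0.045, adjusted p = 0.0627). In SKBR3, 7 of 9 tested were higher and none lower (median 0.22), with NT5E at 27.7 ± 1.73 CPM with MitoQ and 15.0 ± 0.916 CPM in controls (SD, n = 3 each; 0.87 ± 0.072, adjusted p = 2.54e-06). AMOTL2 (0.61 ± 0.083), AJUBA (0.40 ± 0.051) and CYR61 (0.32 ± 0.063) were the others with the smallest p. AXL is also on the list of MDA-MB-231 markers.

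**Figure D4:**
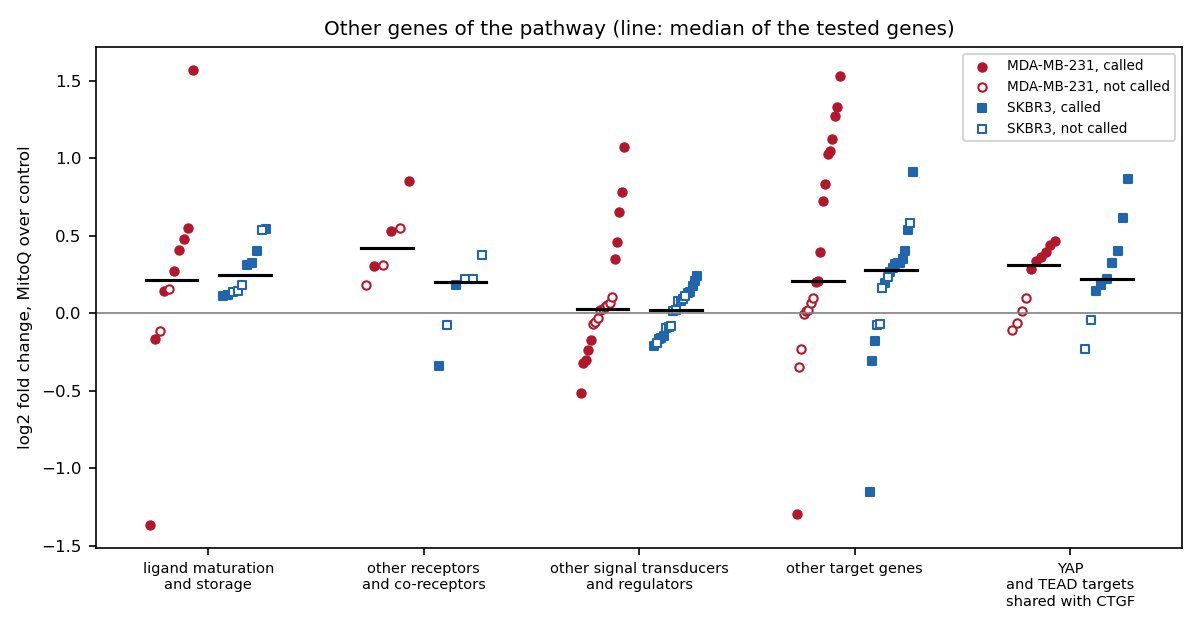
Log2 fold change, MitoQ over control, of each tested gene in the 5 lists of other pathway genes, for MDA-MB-231 (circles) and SKBR3 (squares), with filled symbols for called genes and a line at the median of the tested genes. The other target genes have 11 called higher and 1 lower in MDA-MB-231 and 10 higher and 3 lower in SKBR3, while the transducers and regulators centre near 0 (medians 0.030 and 0.020). Of all genes, 29.9% were called higher and 27.6% lower in MDA-MB-231, and 13.8% and 14.1% in SKBR3.

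The genes most like each member across the libraries mainly followed the gap between the lines. Over the 16 libraries and 11550 candidate genes averaging 5 CPM or more, the 2 genes with the highest Pearson correlation of log2 CPM were CST7 and AC026273.1 for TGFB1, USP32 and IRS2 for TGFB2, TOB1 and IGFBP5 for TGFB3, RMDN1 and MIA3 for TGFBR1, FOXF2 and MICB for TGFBR2, COL5A1 and MYOF for SMAD3, and SLC2A3 and LRP1 for TGFBI, all at 0.995 or more. For CTGF, FJX1 is named, at 0.999. SMAD7, whose level is not set mainly by the line, had lower ones, at 0.978 with SLC48A1 and 0.975 with CLTCL1. These values describe 16 libraries that fall into 2 lines.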

How the data were processed

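RNA of 16 libraries was analysed from gene counts deposited by the authors, whole numbers of at least 0 with a different total in each library, 14723152 to 29294865. Per the submitters' processing notes the tools were Salmon and edgeR and the build GRCh38; versions, the annotation and how transcript estimates became whole gene counts are not given in the sources used here. Of 35106 rows, 8866 had no count and 35003 matched GENCODE release 29 by ID, which gave positions and lengths. CTGF and CYR61 are listed as CCN2 and CCN1 and were matched by gene ID.

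Groups were line and treatment. After filterByExpr and TMM scaling, genes were tested in edgeR 4.0.16 under R 4.3.3 (robust quasi-likelihood F test, two-sided, Benjamini-Hochberg adjustment over all genes tested, threshold 0.05), and adjusted p-values are from that test unless another is named. The SE is the size of the log2 fold change divided by the root of F. Treatment effects were tested line by line, the difference between lines as the interaction over the 16 libraries, and the lines over the 8 controls. CPM values share 1 TMM scale over all libraries; a count of 0 allows up to 3 counts, for counting error only. Ratios used a pseudocount of 0.5. The edgeR steps were tested on simulated data. The libraries of a group differed by more than sampling noise, so none was counted as a repeat.

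The 9 genes, the lists and the tests were chosen with earlier results of these data known. The text names the 9 genes and, in each treatment comparison, up to 4 called genes of each list with the smallest p. The marker genes given with values were added after their values were seen. So were, in MDA-MB-231, CYR61, ANGPTL4, LTBP2, CRIM1, AMOTL1 and the 5 regulators called lower. Some genes that these rules choose are not reported here. The lists were ligand maturation and storage, other receptors and co-receptors, other signal transducers and regulators, other target genes, YAP and TEAD targets, and markers of both lines, fibroblasts, leukocytes and endothelium. Alternatives were RLE size factors, plain library totals, DESeq2 1.42.0, limma 3.58.1 voom with quality weights, no filter or a filter at 1 CPM, mitochondrial mRNAs left out, a threshold of 0.01, a replicate block, a single fit, pseudocounts of 0 and 1, and each library left out in turn. The union of exons as the length was added after the data were seen.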

Additional observations from a re-analysis of the deposited data

Results flagged for a closer look

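Chance flags about 1 in 20 groups when a single library is far from the other 4 of its group, and 5 of 82 groups were flagged. Among the 9 genes these were TGFB3 in MDA-MB-231 control 5, at 4.44 CPM below the other controls, and SMAD3 and TGFBI in MDA-MB-231 MitoQ 2, at 291 and 132 CPM below the other MitoQ libraries. F3 was flagged in both MDA-MB-231 groups, at 304 CPM in MitoQ 3 and 223 CPM in control 1, each the lowest of its group.

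The effect of MitoQ in MDA-MB-231 minus that in SKBR3 passed edgeR's interaction test for SMAD7 (1.40 on the log2 scale), TGFBR1 (0.68) and CTGF (-0.98). It also passed for 17 of the 30 list genes named by smallest p, beside 34.1% of all 17094 genes. Those 30 were picked from the calls within each line in these same data, so their count cannot be compared with that share. Of the storage and release genes the difference was 1.22 for LTBP3, 0.32 for LTBP1, -0.23 for THBS1 and -1.59 for ITGB8, and of the receptors 0.83 for BAMBI. Of the regulators it was 0.93 for SKIL, 0.66 for ZFYVE9, 0.40 for TGIF1, 0.30 for SMURF2 and -0.28 for SMURF1. Of the targets it was 0.99 for JUNB, 0.64 for COL7A1, -0.42 for ADAM19, -0.27 for CYR61, 0.20 for F3 and -0.57 for NT5E. LOX had 3.45, a fitted value that depends on the prior count, since SKBR3 had 1 count of LOX over the MitoQ libraries and 6 over the controls.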

How the results depend on the processing

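Of the 9 genes' log2 fold changes under the alternatives, 170 of 171 values kept their direction and call in MDA-MB-231, 127 of 135 in SKBR3, 209 of 216 for the difference between lines and 153 of 153 between the control lines. Genes called in SKBR3 numbered 4202, against 2436 at a threshold of 0.01 and 2788 with a single fit over all libraries. Leaving out each library gave 2565 to 4547 in SKBR3, the lowest without SKBR3 MitoQ 2, and the cause was not tested. The other counts stayed within 8296 to 9169 in MDA-MB-231, 5073 to 6212 for the difference and 13873 to 14093 for the control lines. The 9 genes' own calls numbered 8, 3 to 5, 3 to 4 and 9 in the same order of comparisons. Reversed values, none of them called, were TGFBR2 in MDA-MB-231 (0.0092) and TGFB3 in the difference (0.038) with plain library totals, TGFBR2 in SKBR3 without SKBR3 control 1 (-0.0011), and TGFB1 in the difference without MDA-MB-231 control 4 (-0.0025), MDA-MB-231 MitoQ 5 (-0.032), SKBR3 control 2 (-0.23) or SKBR3 MitoQ 3 (-0.080). With each library left out, TGFBR2 in SKBR3 ranged from -0.0011 to 0.054 and TGFB1 in the difference from -0.23 to 0.27. Plain library totals moved the share of higher calls in the difference to 58.4%, against 43.9% with TMM.

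Libraries of the same number showed no strong shared deviation, with correlations of -0.089 to 0.0764, and 1 of the 8 pairs correlated best within its number. With so few libraries this cannot settle whether the numbers pair them. With a replicate block 8363 genes were called in MDA-MB-231, 4758 in SKBR3, 5416 for the difference and 13916 between the control lines, and CTGF was called in SKBR3 (0.36, adjusted p = 0.0197); it was also called there with no filter (0.38, adjusted p = 0.0114). TGFBI in SKBR3 was not called with a single fit (adjusted p = 0.0964). The TGFBR1 to TGFBR2 ratio in MDA-MB-231 gave 0.49 with a replicate block, at the smallest exact p of 0.0625 that 5 pairs allow, and 0.45 to 0.55 with each library left out. The same ranges were -0.33 to -0.25 in SKBR3, and for TGFB2 to TGFB1 -0.33 to -0.21 in MDA-MB-231 and -0.60 to -0.016 in SKBR3. Depth limits TGFB1 in SKBR3, where 16 to 38 counts per library stand behind each value.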
